A study of Saccharomyces cerevisiae with 12 samples.

Results

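The 48 genes described here encode proteins of the small subunit processome, the box C/D proteins that belong to it, and later assembly factors of the 40S ribosomal subunit in *Saccharomyces cerevisiae*. They were taken by name from a list of these factors, which was drawn up with earlier results of these data known, and every one of the 48 had a probe set among the 5449 genes tested. The processome is a large nucleolar complex that forms on the nascent ribosomal RNA precursor around the U3 small nucleolar RNA, and it folds and cleaves the precursor so that the RNA of the 40S subunit is released. The particles then pass as pre-40S intermediates to the cytoplasm, where the last factors leave. In yeast the genes for these factors are known as part of a large group of ribosome biogenesis genes that are transcribed together in growing cells and reduced together in many stresses.

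The arrays compared *sus1*Δ cells with and without Congo red (CR), a dye that binds chitin and disturbs cell wall assembly, and WT cells with and without CR. Sus1 is a small protein shared by the deubiquitination module of the SAGA coactivator and by the mRNA export complex TREX-2. WT was the haploid strain BY4741, which has mating type **a** and the alleles *ura3*Δ0, *met15*Δ0, *leu2*Δ0 and *his3*Δ1, and the *sus1*Δ strain was BY4741 with *KanMX4* in place of *SUS1*, so that both strains share the auxotrophies of BY4741. The sources name 1 *sus1*Δ strain and do not say how many isolates of it were grown. CR was given at 30 μg/mL, for 3 h by the sample titles and for 2 h by the deposited design text, and 3 cultures of each strain were each divided into a CR-treated and an untreated part, which gave 12 GeneChip Yeast Genome 2.0 arrays in 4 groups of 3.

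The labels were checked on known genes. *SUS1* read 2.82 to 3.34 on the CR-treated and 2.55 to 3.05 on the untreated *sus1*Δ arrays, against 8.32 to 8.53 on the CR-treated and 7.90 to 8.66 on the untreated WT arrays, in log2 units of signal. The genes *URA3*, *LEU2* and *MET17*, which BY4741 lacks, stayed at 2.57 to 4.44 on all 12 arrays, and the **a**-specific genes of mating type **a** read 9.01 to 13.1. Of the α-specific genes, both α-factor genes read 3.03 to 5.76, *STE3* read 6.69 to 6.98 on *sus1*Δ arrays, against 5.17 to 5.76 on WT arrays, and *SAG1* read 8.13 to 8.57 in all groups. The arrays of WT varied more than those of *sus1*Δ: the median SD of the 48 genes over 3 cultures was 0.0792 with CR and 0.0834 without CR in *sus1*Δ, against 0.143 with CR and 0.189 without CR in WT.

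Signals are log2 values, so a difference of 1 is a 2-fold change, and signals of different probe sets are not compared with each other. The 48 genes lie on 14 chromosomes, span 552 to 7482 bp and had signals of 7.46 to 12.8, and their mean signals all lay above 8.11, the 25th percentile of all probe sets. A gene was called at an adjusted p under 0.05 in limma, with the Benjamini-Hochberg adjustment made over the 5449 genes.

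**Figure D1:**
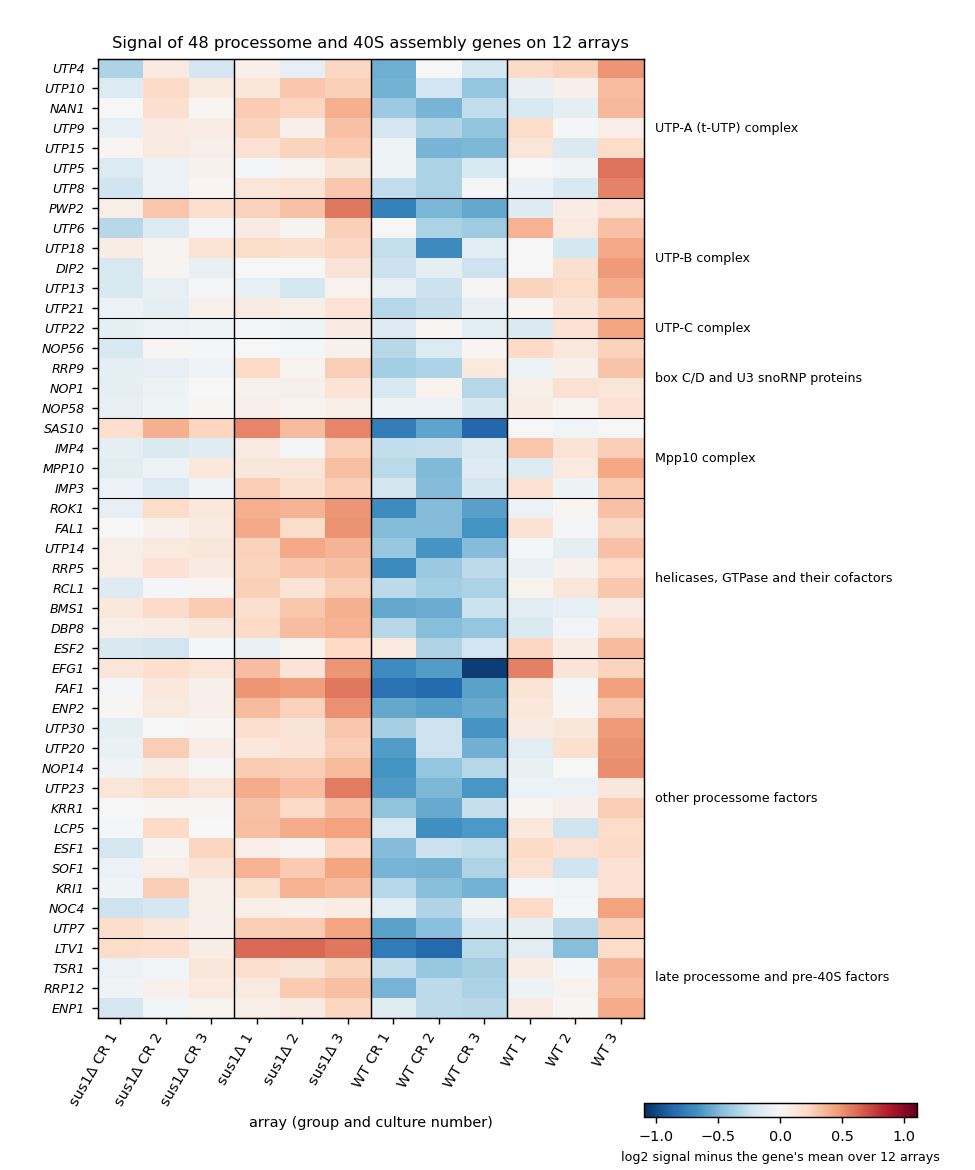
Heat map of the 48 genes (rows, by role) on 12 arrays (columns: *sus1*Δ with CR, *sus1*Δ, WT with CR and WT, cultures 1 to 3), with colour for the log2 signal minus the gene's mean over the 12 arrays. The CR-treated WT arrays have the lowest mean level, at -0.40 to -0.34, and culture 3 of untreated WT is the highest of its group for 42 of 48 genes.

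CR lowered most of these transcripts in WT cells. Of the 48 genes, 38 fell and 0 rose, whereas over all genes 9.01% fell and 9.40% rose. The median change was -0.48 on the log2 scale (28.3% lower), against -0.02 over all genes, and single genes lay between -1.09 for *EFG1* and -0.20 for *NOP58*. All 48 differences were negative, as were 54.2% of those of all genes, and 47 genes were lower in each of the 3 cultures, compared with 30.0% of all genes. In 38 genes all 3 CR-treated arrays lay below all 3 untreated arrays, compared with 14.7% of all genes. The reductions were moderate. They exceeded 0.3 in 45 genes and 0.5 in 19, and only *EFG1* passed both the adjusted p and a 2-fold limit, as did 0.110% of all genes. In RNA from whole cultures, fewer cells with a transcript and less of it per cell cannot be told apart.

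The count of calls in WT depended on the model. With limma fitted to the WT arrays alone, 12 of the 38 genes remained called (1.96% of all genes fell in this fit), and with array weights 23 of the 48 were called (4.86% of all genes). The methods' t-test gave 0 lower genes of the 48 after adjustment, and 0.294% of all genes. Leaving out the untreated array of WT culture 3, the highest of its group for 42 genes, left 27 calls (6.96% of all genes) and a median of -0.38. When any single array was left out, 27 of the 38 calls remained, and those lost at least once were *UTP4*, *UTP10*, *UTP15*, *NAN1*, *DIP2*, *NOP56*, *MPP10*, *BMS1*, *NOC4*, *LCP5* and *ENP1*. The individual medians of the WT cultures 1, 2 and 3 were -0.39, -0.41 and -0.63.

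**Figure D2:**
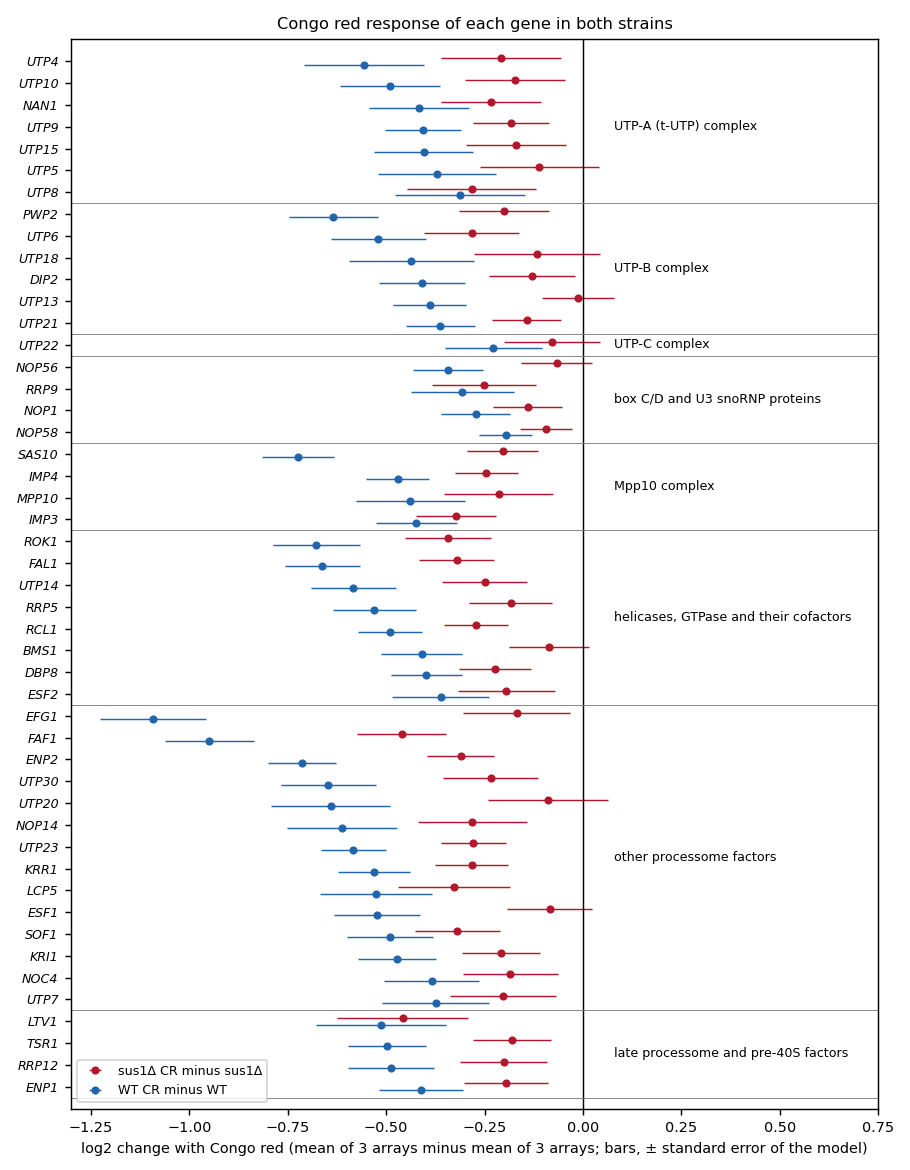
Log2 change with CR (horizontal axis) of each of the 48 genes (vertical axis, by role) in *sus1*Δ (red) and WT (blue), as the mean of 3 CR-treated minus the mean of 3 untreated arrays, with the standard error of the model as bars. Every point lies left of 0, and every WT point lies further left than the *sus1*Δ point of the same gene.

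The UTP-A and UTP-B complexes are the first large blocks to bind the precursor. In UTP-A, also named t-UTP for its link to transcription of ribosomal DNA, 5 of 7 genes fell in CR-treated WT cells, with a median over the 7 of -0.41, and *UTP5* and *UTP8* were not called at -0.37 and -0.31. In UTP-B, 5 of 6 genes fell, with a median of -0.42, and *UTP18* was not called at -0.44. The largest change in UTP-B was in *PWP2* (YCR057C, chromosome III, 220457 to 223228 of the R64 assembly), which encodes a scaffold protein with WD repeats. *PWP2* read 8.74, 8.98 and 8.92 in CR-treated WT cultures, against 9.34, 9.56 and 9.64 in untreated ones. The groups did not overlap, and the difference was -0.63 ± 0.11 (SE; adjusted p = 0.00275 in limma). The measured gene of UTP-C, *UTP22*, encodes a protein that works with casein kinase 2 in the processome. It read 10.04, 10.19 and 10.05 in CR-treated WT cultures, against 10.02, 10.34 and 10.61 in untreated ones, so the groups overlapped and the difference of -0.23 ± 0.12 was not called (adjusted p = 0.236 in limma).

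The box C/D genes had a median of -0.29 in WT, and 1 of 4 fell. These proteins form the core of the small nucleolar particles that guide methylation of ribosomal RNA, and of the U3 particle. *NOP1*, which encodes fibrillarin, the methyltransferase, read 12.02, 12.23 and 11.88 in CR-treated WT cultures, against 12.26, 12.36 and 12.33 in untreated ones. *NOP58*, which encodes a core protein beside it, read 12.62, 12.61 and 12.48 with CR, against 12.76, 12.71 and 12.84 without CR in WT. For both genes the groups did not overlap, but the differences of -0.27 ± 0.09 and -0.20 ± 0.07 missed the threshold (adjusted p = 0.0509 and 0.0637 in limma). The gene that fell was *NOP56*, which encodes the partner of Nop58. It read 11.58, 11.74 and 11.91 with CR, against 12.11, 12.004 and 12.14 without CR in WT, and the difference was -0.34 ± 0.09 (adjusted p = 0.0211 in limma, and at most 0.0706 with 1 array left out). *RRP9*, whose product binds U3 RNA specifically, read 9.33, 9.37 and 9.81 with CR, against 9.65, 9.76 and 10.01 without CR in WT. Culture 3 carried the high value of *RRP9* in both groups, which overlapped, and the difference of -0.31 ± 0.13 was not called (adjusted p = 0.135 in limma).

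The Mpp10 complex joins U3 RNA to the precursor, and all 4 of its measured genes fell in WT, with a median of -0.45. *IMP3* and *IMP4*, whose products help U3 RNA to pair with the precursor, fell by 0.42 and 0.47. *SAS10* (YDL153C, chromosome IV, 181186 to 183018) encodes an essential processome protein grouped here with Mpp10. It read 9.105, 9.29 and 9.01 in CR-treated WT cultures, against 9.86, 9.83 and 9.87 in untreated ones. The untreated values lay close together and well above the treated ones, and the difference was -0.72 ± 0.09 (adjusted p = 0.000338 in limma).

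Helicases, the GTPase Bms1 and their cofactors remodel the particle, and 7 of these 8 genes fell in WT, with a median of -0.51. The gene not called was *ESF2*, which encodes the cofactor of the helicase Dbp8, at -0.36 (adjusted p = 0.0633 in limma). *ROK1* (YGL171W, chromosome VII, 182390 to 184084) encodes a DEAD-box helicase that releases the small nucleolar RNA snR30. It read 8.97, 9.19 and 9.07 with CR, against 9.60, 9.68 and 9.98 without CR in WT, a difference of -0.68 ± 0.11 (adjusted p = 0.00158 in limma). *FAL1* (YDR021W, chromosome IV, 486804 to 488003), which encodes a DEAD-box protein related to the translation factor eIF4A, read 7.66, 7.66 and 7.48 with CR, against 8.30, 8.12 and 8.37 without CR in WT. The *FAL1* groups were separated as well, and the difference was -0.66 ± 0.10 (adjusted p = 0.000771 in limma).

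Among other processome factors 13 of 14 genes fell in WT, with a median of -0.56, *EFG1* and *FAF1* among them. *UTP7*, a scaffold factor at -0.37, was the gene not called. *FAF1* (YIL019W, chromosome IX, 315093 to 316133) encodes a small nucleolar protein needed for early cleavage of the precursor. It read 7.51, 7.46 and 7.73 with CR, against 8.47, 8.31 and 8.77 without CR in WT. The lowest untreated value lay above every treated one, and the difference was -0.95 ± 0.11 (adjusted p = 0.000233 in limma).

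*ENP2* (YGR145W, chromosome VII, 781767 to 783890), an essential nucleolar WD-repeat factor, read 10.02, 9.99 and 10.03 with CR, against 10.70, 10.60 and 10.87 without CR in WT. *UTP30* (YKR060W, chromosome XI, 556518 to 557342), which encodes a non-essential processome protein, read 8.80, 8.94 and 8.52 with CR, against 9.27, 9.29 and 9.64 without CR in WT. *UTP20* (YBL004W, chromosome II, 227636 to 235117), the longest of the 48 genes, encodes a very large protein built of HEAT repeats and read 9.77, 10.16 and 9.86 with CR, against 10.27, 10.56 and 10.88 without CR in WT. None of these 3 genes had overlapping groups, and in *UTP30* and *UTP20* the cultures lay further apart than in *ENP2*. Their differences were -0.71 ± 0.09, -0.65 ± 0.12 and -0.64 ± 0.15 (adjusted p = 0.00025, 0.00348 and 0.013 in limma).

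Of the 4 late and pre-40S factors, 3 fell in WT, with a median over the 4 of -0.49. These were *ENP1*, a factor that stays on the particle into the cytoplasm (-0.41), *TSR1*, whose product resembles a GTPase (-0.50), and *RRP12*, needed for export of the particle (-0.49). *LTV1* (YKL143W, chromosome XI, 176781 to 178172) encodes a factor for assembly of the head of the subunit. It read 8.54, 8.45 and 9.01 with CR, against 9.18, 8.84 and 9.51 without CR in WT. Each culture was lower with CR, but culture 3 was high in both parts and the groups overlapped, so that the difference of -0.51 ± 0.17 missed the threshold (adjusted p = 0.0527 in limma). When the culture was taken as a block, *LTV1*, *NOP1* and *RRP9* were called with adjusted p of 0.00102, 0.023 and 0.011 in limma, and *NOP58* and *UTP22* were still not called at 0.0653 and 0.131. With the same block in WT arrays alone, only *LTV1* of these 5 genes was called (adjusted p = 0.0129 in limma), and *NOP1* and *RRP9* had 0.0992 and 0.0523.

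**Figure D3:**
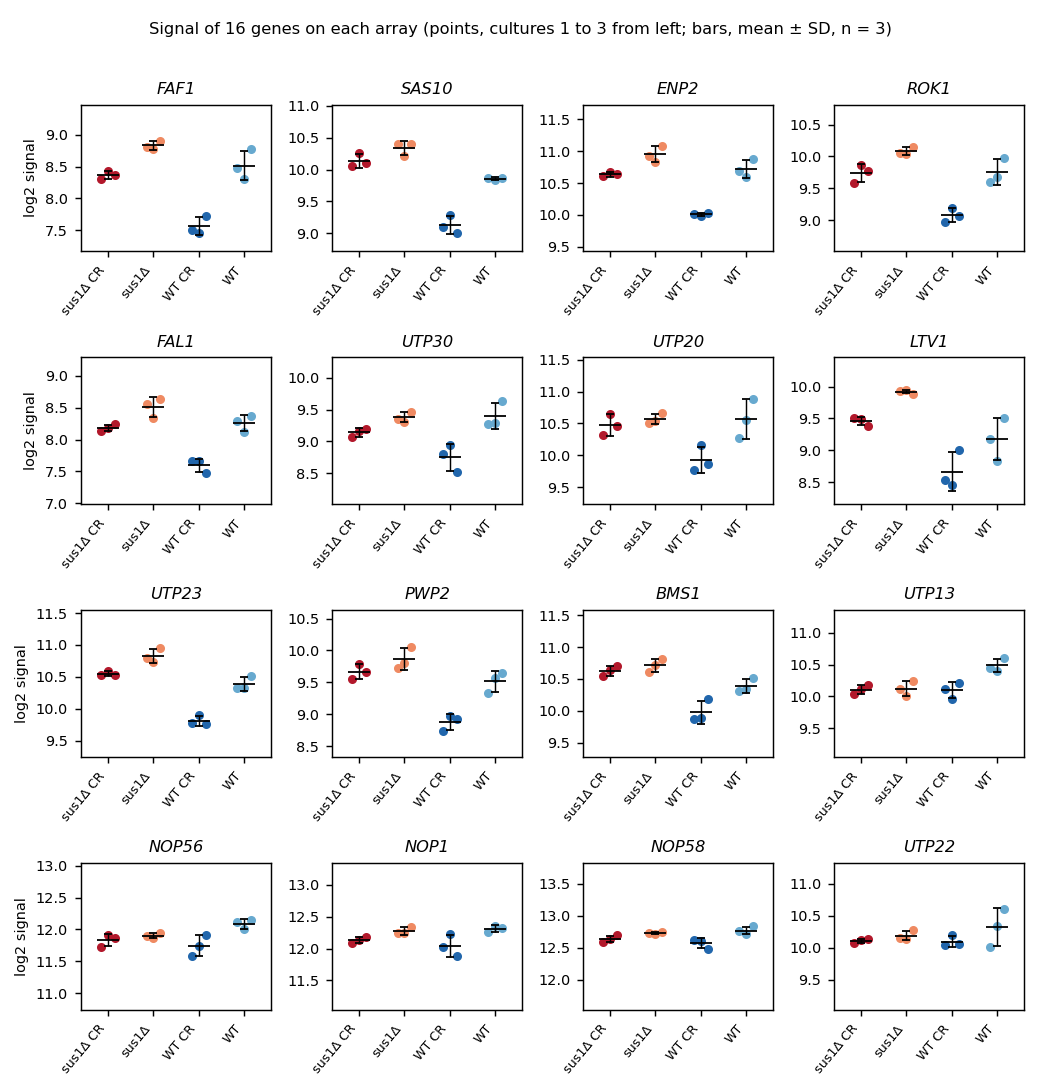
Log2 signal (vertical axis, an equal span of 2.3 in every panel) of 16 genes on each array (points, cultures 1 to 3 from left) in *sus1*Δ with CR, *sus1*Δ, WT with CR and WT, with the mean ± SD (n = 3) as bars. In *SAS10*, *FAF1* and *UTP23* the CR-treated WT arrays lie below all other arrays, whereas *NOP58* and *UTP22* stay nearly level.

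In *sus1*Δ cells the same transcripts had smaller differences with CR, and none was called. Of the 48 genes, 0 fell and 0 rose, compared with 0.147% and 1.39% of all genes. The median difference was -0.20 (13.2% lower), against -0.03 over all genes, and single genes lay between -0.46 for *FAF1* and -0.01 for *UTP13*. All 48 differences were again negative, compared with 59.4% of all genes, 39 genes were lower in each of the 3 cultures, compared with 31.1%, and 31 genes had CR-treated arrays that all lay below the untreated ones, compared with 16.9%. Without adjustment, 16 genes had p under 0.05 for a lower value, compared with 4.94% of all genes, and 0 for a higher value, compared with 5.29%. The 3 largest differences were in *FAF1*, *LTV1* and *ROK1*. *FAF1* read 8.30, 8.43 and 8.38 in CR-treated *sus1*Δ cultures, against 8.81, 8.78 and 8.91 in untreated ones, a difference of -0.46 ± 0.11 (adjusted p = 0.0869 in limma). *LTV1* read 9.51, 9.49 and 9.39 with CR, against 9.93, 9.94 and 9.89 without CR in *sus1*Δ, also a difference of -0.46 (adjusted p = 0.329 in limma). *ROK1* read 9.57, 9.86 and 9.78 with CR, against 10.06, 10.04 and 10.15 without CR, a difference of -0.34 (adjusted p = 0.249 in limma).

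The groups of these 3 genes did not overlap in *sus1*Δ, and the count of 0 depended on how the spread was estimated. The fit over all 12 arrays gives each gene 1 variance, to which the more variable WT arrays contribute. With culture as a block, *IMP3*, *FAF1* and *LTV1* fell (adjusted p = 0.0206, 0.00854 and 0.0079 in limma). In this fit 1.05% of all genes fell. Fitted to the *sus1*Δ arrays alone, 10 genes fell (2.64% of all genes), with array weights 19 (4.64%), and without both arrays of WT culture 3 there were 3 (0.936%). The 38 calls in WT and the 0 calls in *sus1*Δ therefore do not by themselves compare the strains.

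The difference between the CR responses was tested as an interaction. It was not called for any of the 48 genes in limma, while 0% of all genes were called higher and 0.0734% lower in this test. The median of the *sus1*Δ response minus the WT response was 0.26, against -0.003 over all genes, so the reduction in *sus1*Δ was the smaller one for 48 of 48 genes, compared with a positive sign in 49.1% of all genes. Unadjusted p-values were under 0.05 for 14 genes with a higher value, compared with 3.40% of all genes, and for 0 with a lower value, compared with 5.23%. The difference exceeded 0.3 in 20 genes. The largest differences were in *EFG1* at 0.92 ± 0.19 (adjusted p = 0.13 in limma), *UTP20* at 0.55 ± 0.21 (adjusted p = 0.499) and *SAS10* at 0.52 ± 0.13 (adjusted p = 0.219). In *UTP20* the CR-treated *sus1*Δ cultures read 10.31, 10.65 and 10.47, against 10.50, 10.54 and 10.66 untreated, so these groups overlapped. The smallest differences between the responses were in *UTP8* at 0.03 and *LTV1* at 0.05.

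Without the untreated array of WT culture 3 the median of this difference was 0.17. Over the 48 genes the mean deviation from each gene's own mean was 0.20, 0.18 and 0.31 on untreated *sus1*Δ arrays, and 0.05, 0.01 and 0.30 on untreated WT arrays. With CR it was -0.05, 0.05 and 0.06 in *sus1*Δ, against -0.38, -0.40 and -0.34 in WT. Thus the 3 CR-treated WT arrays stood apart from all others, whereas culture 3 of untreated WT reached the level of untreated *sus1*Δ. Across the 48 genes the responses of *sus1*Δ and WT had a Pearson correlation of 0.43 and a Spearman correlation of 0.47, and without *EFG1* of 0.55 and 0.52. Over all genes these were 0.82 and 0.68. The points are genes that share the same 12 arrays and are not independent replicates.

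**Figure D4:**
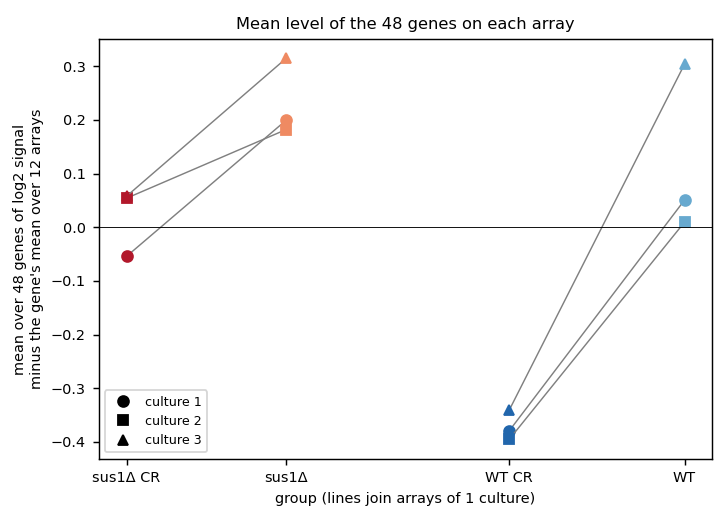
Mean over the 48 genes of the log2 signal minus the gene's mean over 12 arrays (vertical axis) for each array in *sus1*Δ with CR, *sus1*Δ, WT with CR and WT, with lines joining the parts of 1 culture. All 6 cultures are lower with CR, and the CR-treated WT arrays are the lowest at -0.40 to -0.34.

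Without CR the strains differed in few of these genes. In untreated *sus1*Δ cells 6 genes were higher and 1 was lower than in untreated WT cells, compared with 14.3% and 7.08% of all genes. In this fit the share of the 48 genes called was thus close to that of all genes or below it. After quantile normalization 9.69% of all genes were higher and 9.67% lower. The median difference was 0.11, against 0.03 over all genes, with 31 positive values, compared with 56.0% of all genes. Groups did not overlap for 13 genes that were higher in *sus1*Δ, compared with 25.3% of all genes, and for 2 that were lower, compared with 16.4%. *LTV1* had the largest difference. It read 9.93, 9.94 and 9.89 in untreated *sus1*Δ cultures, against 9.18, 8.84 and 9.51 in untreated WT cultures, a difference of 0.74 ± 0.17 (adjusted p = 0.00983 in limma). *SAS10* read 10.41, 10.22 and 10.40 in *sus1*Δ, against 9.86, 9.83 and 9.87 in WT, a difference of 0.48 ± 0.09 (adjusted p = 0.0042 in limma). The *sus1*Δ values of both genes lay above every WT value.

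*UTP23* (YOR004W, chromosome XV, 333592 to 334356), which encodes a PIN-domain protein that takes part in the release of snR30, read 10.80, 10.73 and 10.95 in untreated *sus1*Δ cultures, against 10.33, 10.33 and 10.52 in untreated WT cultures. The difference was 0.44 ± 0.08 (adjusted p = 0.00439 in limma). *PWP2*, *BMS1* and *DBP8* were higher by 0.35, 0.33 and 0.31 (adjusted p = 0.0472, 0.0417 and 0.0317 in limma). *PWP2* read 9.73, 9.80 and 10.06 in untreated *sus1*Δ cultures, against the 9.34 to 9.64 given above for WT. *BMS1* (YPL217C, chromosome XVI, 139620 to 143171), the gene of the GTPase, read 10.61, 10.72 and 10.81 in *sus1*Δ, against 10.31, 10.34 and 10.52 in WT. *DBP8* (YHR169W, chromosome VIII, 442181 to 443476), the gene of a DEAD-box helicase, read 9.44, 9.56 and 9.60 in *sus1*Δ, against 9.07, 9.19 and 9.41 in WT. In all 3 of these genes the highest WT value, each time that of culture 3, came within 0.1 of the lowest *sus1*Δ value.

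The exception was *UTP13* (YLR222C, chromosome XII, 579318 to 581771), a WD-repeat gene of UTP-B. It read 10.11, 10.01 and 10.24 in untreated *sus1*Δ cultures, against 10.44, 10.40 and 10.61 in untreated WT cultures, a difference of -0.37 ± 0.09 (adjusted p = 0.0172 in limma). With CR it read 10.03, 10.11 and 10.18 in *sus1*Δ, against 10.11, 9.96 and 10.21 in WT, so that *UTP13* fell with CR in WT to the level that *sus1*Δ cells had with and without CR. Of the 7 calls between untreated strains, *LTV1*, *SAS10* and *UTP23* remained when any single array was left out. The count of higher genes depended on single cultures. It was 15 without the untreated array of WT culture 3, when 17.0% of all genes were called higher, and 20 without both arrays of that culture, when 20.9% were, so that without this culture the share of the 48 genes lay above that of all genes. It was 3 without untreated WT culture 2, untreated *sus1*Δ culture 2 or untreated *sus1*Δ culture 3, when 7.52% to 12.7% of all genes were. The median was 0.23 without untreated WT culture 3 and 0.046 without untreated WT culture 1, and *UTP13* was not called without untreated *sus1*Δ culture 1 or 2.

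With CR the strains differed in most of these genes. In CR-treated *sus1*Δ cells 29 genes were higher and 0 were lower than in CR-treated WT cells, compared with 16.8% and 10.9% of all genes. The median difference was 0.42 (33.4% higher), against 0.03 over all genes. On the brightest probe set of each gene all 48 values were positive, compared with 54.8% of all genes. In 32 genes the groups did not overlap in this direction, compared with 26.0%. This comparison shares its CR-treated WT arrays with the CR response of WT, so that the 2 counts are not independent.

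By role, 13 of 14 other processome factors were higher, with a median over the 14 of 0.54, as were 7 of 8 genes of helicases, the GTPase and cofactors, with a median of 0.58. In UTP-A 4 of 7 genes were higher (median 0.34), in the late and pre-40S group 3 of 4 (median 0.39), in UTP-B only *PWP2* (median of the 6 genes 0.14) and in the Mpp10 complex only *SAS10* (median of the 4 genes 0.25). None of the 4 box C/D genes was called, and their values lay between 0.07 and 0.13.

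*SAS10* read 10.05, 10.26 and 10.10 in CR-treated *sus1*Δ cultures, against 9.105, 9.29 and 9.01 in CR-treated WT cultures. Its difference of 1.00 ± 0.09 (adjusted p = 4.12e-05 in limma) made it the single gene of the 48 at 2-fold or more, compared with 2.35% of all genes called higher at that fold. *FAF1* had the *sus1*Δ values given above, 8.30 to 8.43, against 7.46 to 7.73 in WT, and *LTV1* had 9.39 to 9.51, against 8.45 to 9.01. The 2 genes differed by 0.80 each (adjusted p = 0.000589 and 0.0051 in limma), and no *sus1*Δ array of either overlapped with WT. *PWP2* read 9.55, 9.79 and 9.67 in CR-treated *sus1*Δ cultures, against 8.74, 8.98 and 8.92 in CR-treated WT cultures, a difference of 0.79 ± 0.11 (adjusted p = 0.000704 in limma). *UTP23* read 10.53, 10.59 and 10.53 in *sus1*Δ, against 9.77, 9.90 and 9.75 in WT, a difference of 0.74 ± 0.08 (adjusted p = 0.000159 in limma). For both genes the lowest *sus1*Δ array lay more than 0.5 above the highest WT array.

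Of the 29 calls, 17 remained when any single array was left out, with *SAS10*, *FAF1*, *LTV1*, *PWP2* and *UTP23* among them. The call of *EFG1* also remained, but only its brighter probe set was fitted there. On its dimmer probe set the difference with CR was -0.01. The count was 18 without CR-treated *sus1*Δ culture 2 and 19 without CR-treated *sus1*Δ culture 3. In these fits 10.9% and 12.1% of all genes were called higher, where the fit over 12 arrays gave 16.8%. At the low end of the scale the strains differed as a whole, since the lowest 5% of probe sets ended at 5.36 to 5.49 on *sus1*Δ arrays and at 4.53 to 4.80 on WT arrays. Quantile normalization, which gives all arrays the same distribution, changed the strain comparison with CR over all genes. It gave 737 higher and 815 lower, where the main fit gave 914 and 593. Of the 48 genes, 29 were higher and 0 lower with CR after it, with a median of 0.41. Between untreated strains 7 of the 48 were higher and 1 was lower. The part of the low end in single calls was not tested further, and no value of the 48 genes lay below 7.46.

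*EFG1* (YGR271C-A, chromosome VII, 1037800 to 1038501), which encodes a nucleolar protein needed for maturation of the small subunit RNA, was the one gene of the 48 with more than 1 probe set. The brighter one read 8.56, 8.64 and 8.21 in CR-treated WT cultures, against 9.81, 9.39 and 9.50 in untreated ones, a difference of -1.09 ± 0.13 (adjusted p = 0.000307 in limma). The dimmer one read 8.73, 7.97 and 8.34 with CR, against 9.61, 9.34 and 9.13 without CR in WT, a difference of -1.02 ± 0.20 (adjusted p = 0.00502 in limma). Neither had overlapping groups in WT, so both probe sets gave a reduction of about the same size.

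The 2 probe sets of *EFG1* parted on the strains. In untreated cells the brighter one read 9.59, 9.39 and 9.74 in *sus1*Δ, against 9.81, 9.39 and 9.50 in WT, a difference of 0.01 (adjusted p = 0.979 in limma). The dimmer one read 8.37, 8.39 and 8.91 in *sus1*Δ, against 9.61, 9.34 and 9.13 in WT, a difference of -0.80 ± 0.20 (adjusted p = 0.0168 in limma). With CR the gap was on the other probe set. The brighter one read 9.38, 9.44 and 9.39 in *sus1*Δ, against 8.56, 8.64 and 8.21 in WT, a difference of 0.93 ± 0.13 (adjusted p = 0.000709 in limma). The dimmer one read 8.17, 8.38 and 8.44 in *sus1*Δ, against 8.73, 7.97 and 8.34 in WT, a difference of -0.01 (adjusted p = 0.965 in limma). The strain difference of *EFG1*, with or without CR, therefore depended on the probe set, whereas the CR response in *sus1*Δ was -0.17 on the brighter and -0.23 on the dimmer one, and was called on neither.

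**Figure D5:**
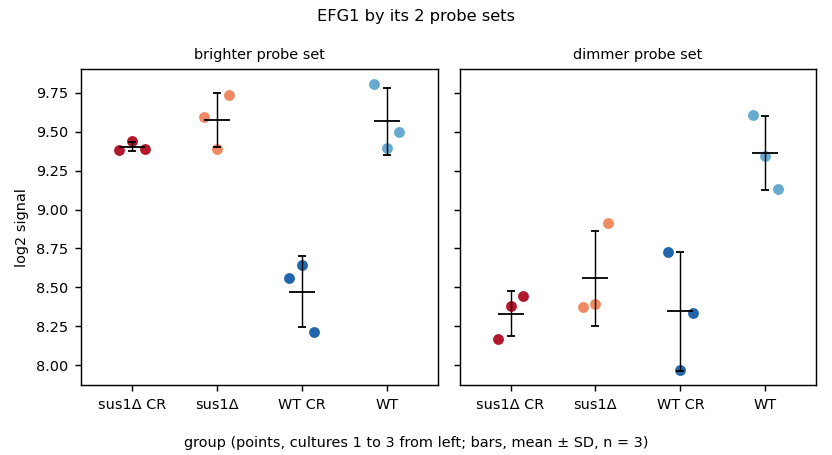
Log2 signal (vertical axis) of the brighter and the dimmer probe set of *EFG1* on each array (points, cultures 1 to 3 from left) in *sus1*Δ with CR, *sus1*Δ, WT with CR and WT, with the mean ± SD (n = 3) as bars. On the brighter probe set only CR-treated WT cells are low, and on the dimmer one only untreated WT cells are high.

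Related gene lists gave the context, beside all genes, of which 9.01% fell with CR in WT and 0.147% in *sus1*Δ. With CR, 16.8% of all genes were higher and 10.9% lower in *sus1*Δ than in WT. Of 44 other 40S assembly factors, 30 fell and 0 rose with CR in WT, with a median of -0.47, and 0 fell in *sus1*Δ, where the median was -0.17. The largest reductions were in *PXR1* (-0.85), *FYV7* (-0.81) and *RRP8* (-0.78). With CR, 21 of the 44 were higher and 2 were lower in *sus1*Δ than in WT. Of 64 factors of the 60S subunit, 48 fell in WT, with a median of -0.47, led by *SYO1* (-0.96), *SDA1* (-0.77) and *MAK16* (-0.72), and 0 fell in *sus1*Δ, where the median was -0.21. In the 60S list 29 were higher and 0 were lower in CR-treated *sus1*Δ than in CR-treated WT cells, and the median difference between the responses was 0.25. The box H/ACA proteins, which guide pseudouridylation, resembled the box C/D group in size, with 3 of 4 lower in WT and a median of -0.27. The 48 genes thus had changes of the same order as those of the factors of both subunits, and no test of a difference between these lists was made.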

How the data were processed

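Arrays of *sus1*Δ and WT cells with and without CR were compared. The deposited log2 signals were made by the authors from the array scans by RMA in the Affymetrix Expression Console (background correction, quantile normalization and summary per probe set). For its version and the arrays that shared a normalization, the answer is not given in the sources used here. By the platform annotation 5498 of 5739 probe sets name 1 gene each and 241 have no entry, and the brightest probe set stood for each of 47 genes with several, which left 5449 genes. In R 4.3.3, limma 3.58.1 fitted 4 group means to all 12 arrays without a block, with two-sided tests and Benjamini-Hochberg adjustment over all genes, whereas the study's methods used a t-test without adjustment. The scripts were tested on simulated data. The 48 genes, the role groups, the lists and the rule for named genes were chosen with earlier results of these data known. The rule took the 8 largest and 3 smallest CR responses in WT, up to 6 called genes in each other comparison or else the 3 largest differences, and the box C/D proteins. From other lists it took at most 3 genes, by the size of the CR response in WT. *RPS10B*, *FHL1*, *CRF1* and *REB1* were named outside this rule, by their differences between the untreated strains. Arrays of 1 culture deviated together from their group means (r of 0.25 to 0.72 in 6 pairs, over all genes), so replicate numbers pair the arrays within a strain, as the design text states. Over the 48 genes r for cultures 1 to 3 was 0.44, 0.60 and 0.46 in WT, but 0.20, 0.03 and 0.08 in *sus1*Δ. Across strains, again over all genes, r was -0.03 to 0.19 in pairs with the same number and -0.15 to 0.16 in pairs with other numbers. The p-values of the main fit rest on 1 variance per gene, shared by the 4 groups and both strains. Both arrays of a culture count as independent in that fit. Having only 3 cultures of each strain limits the precision. Coordinates are those of the R64 annotation. Alternatives were the test, the thresholds, the probe sets, a filter on dim probe sets, the scaling, the arrays fitted, the block, the variance model and left-out arrays.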

Additional observations from a re-analysis of the deposited data

How the results depend on the processing

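With limma over all 12 arrays, CR lowered 38 genes in WT and 0 in *sus1*Δ, compared with 9.01% and 0.147% of all genes. In *sus1*Δ 6 untreated genes were higher than in WT (14.3% of all genes), 1 was lower (7.08%) and 29 were higher with CR (16.8%). The methods' t-test with unadjusted p and a 2-fold limit gave 1 gene lower in WT, 0 lower and 0 higher between untreated strains and 1 higher with CR. Over all genes this test called 0.11% lower in WT, 0.11% lower and 2.35% higher between untreated strains and 2.24% higher with CR. After Benjamini-Hochberg adjustment it gave 0 lower in WT, 1 lower in *sus1*Δ, 0 lower and 1 higher between untreated strains and 12 higher with CR. The adjusted shares of all genes were 0.294% lower in WT and 0.275% lower in *sus1*Δ. Between untreated strains they were 1.38% lower and 3.19% higher, and with CR 6.7% higher. Adjusted p with a 2-fold limit in limma gave 1 lower in WT, 0 lower and 0 higher between untreated strains and 1 higher with CR. The shares of all genes were 0.11%, 0.0734%, 2.46% and 2.35% in the same order. With the dimmer probe set of *EFG1* the count of lower genes between untreated strains was 2, when 400 of 5498 probe sets were lower. The *EFG1* difference with CR was then -0.014 in place of 0.93. With only the groups compared in the fit there were 12 lower in WT (1.96% of all genes) and 10 lower in *sus1*Δ (2.64%). Between untreated strains 3 were higher (11.6%). Over all genes 107 fell and 218 rose in WT in this fit, where the fit over 12 arrays gave 491 and 512. Array weights gave 23, 19 and 14 for the same 3 counts, compared with 4.86%, 4.64% and 16.6% of all genes. Without both arrays of WT culture 3 there were 3 lower in *sus1*Δ (0.936% of all genes). Between untreated strains 20 were higher (20.9%), with a median of 0.23 in place of 0.11.

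With culture as a replicate block, which pairs the arrays of a culture, 46 genes fell in WT and 3 in *sus1*Δ. The calls over all genes rose as well. In this fit 818 of all genes fell in WT, where the fit without a block gave 491, and 57 fell in *sus1*Δ, where it gave 8. A block for the replicate number between strains, where the numbers did not pair the arrays, gave 10 higher between untreated strains and 31 higher with CR. The shares of all genes were 17.4% and 19.7%. Each strain fitted alone with culture as a block, an alternative chosen after seeing the data, gave 36 lower in WT and 17 in *sus1*Δ, compared with 8.46% and 4.53% of all genes.

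Leaving out 1 array at a time gave 27 to 40 lower in WT (median -0.52 to -0.38), 0 to 1 lower in *sus1*Δ, 0 to 1 lower and 3 to 15 higher between untreated strains (median 0.046 to 0.23), 18 to 30 higher with CR, and a median difference between the responses of 0.17 to 0.32. Of all genes, 6.96% to 9.12% were lower in WT and 0.0184% to 0.349% lower in *sus1*Δ in these fits. Between untreated strains 2.99% to 8.22% were lower and 7.52% to 17.0% higher, and with CR 10.9% to 19.1% were higher. The interaction was called for 0 of the 48 genes in each fit in which it was tested, which leaves out the t-tests, the fits of the compared groups or of 1 strain alone and the block for the replicate number. Scaling, the filter on dim probe sets, the mean of probe sets and the trend and robust option kept every count of the 48 genes within 1.5 times. The number of arrays and the unequal spread of the strains limit which of the smaller changes could be called.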

Other observations

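Genes of RNA polymerase I, which transcribes the ribosomal RNA precursor, were also lower with CR in WT, where 6 of 8 fell, with a median of -0.42, led by *RPA34* (-0.65), *RPA43* (-0.58) and *RPA49* (-0.46). In *sus1*Δ 0 of the 8 fell and the median was -0.20. Of all genes, 9.01% fell in WT and 0.147% in *sus1*Δ. Of the 40S ribosomal protein genes, 52 were measured and 3 fell with CR in WT, compared with 9.01% of all genes. Their median was -0.08. In untreated *sus1*Δ cells 11 of these 52 were lower and 0 higher than in untreated WT cells, with a median of -0.10. Of all genes, 7.08% were lower and 14.3% higher. The gene with the lowest difference of the 52 in this comparison was *RPS10B*. It read 11.05, 10.85 and 11.22 in *sus1*Δ, against 11.80, 11.68 and 11.70 in WT, a difference of -0.69 (adjusted p = 0.000466 in limma). Many ribosomal protein genes have a near-identical second copy, so a probe set may read both.

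Of 13 regulators of ribosome biogenesis genes, 1 fell with CR in WT, *RAP1* at -0.26, compared with 9.01% of all genes. In untreated cells 3 were higher in *sus1*Δ, compared with 14.3% of all genes. *FHL1*, which encodes a forkhead factor at ribosomal protein genes, read 8.72, 8.92 and 8.68 in *sus1*Δ, against 7.31, 7.74 and 8.15 in WT, a difference of 1.04 (adjusted p = 0.00146 in limma). *CRF1*, the gene of a corepressor that binds Fhl1, read 5.32 to 5.74 in *sus1*Δ, against 3.81 to 4.19 in WT, a difference of 1.51, and *REB1* differed by 0.34. The *CRF1* values lie at the low end of the scale, where the 2 strains differ as a whole, and the part of that in its difference was not tested. *FHL1*, *CRF1* and *REB1*, and *RPS10B* above, were chosen after their values were seen.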
